A study of Mus musculus with 22 samples.

Results

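Matrix Gla protein (Mgp) was read here together with 8 genes of bone morphogenetic protein (BMP) signalling, the pathway that its protein restrains: the ligands Bmp2, Bmp4 and Bmp6, the secreted antagonists Grem1 and Nog, and the target genes Id1, Id2 and Id3. These are 9 of the 20018 named genes on the array. Mgp was chosen by its values, as the gene with the largest fall at each dose, so its dose comparisons are a description and carry no test. The other 8 were chosen by their place in the pathway and were tested in the fit across all probes, with earlier results of these data already known, so their counts are not independent of those results.

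Gene expression was measured in FE1, a spontaneously immortalised epithelial line from the lung of a Muta(TM)Mouse, which carries a lacZ reporter transgene in every group. As a line grown alone it lacks the other cell types of a lung. All cells were incubated for 24 h in the same medium, and the groups differed in the dose of Mitsui7, a multi-walled carbon nanotube: control at 0 µg/ml (5 arrays), low dose at 12.5 µg/ml (6 arrays), medium dose at 25 µg/ml (5 arrays) and high dose at 100 µg/ml (6 arrays). On each of the 22 arrays the sample carried the dye Cy5 and a common Universal Mouse Reference RNA carried Cy3, and a value below is the log2 ratio of sample to reference unless another quantity is named. By the study's methods the cells were exposed in separate experiments, fewer than the arrays of any group. The sources do not say which arrays came from which experiment. Some of the 5 or 6 arrays of a group therefore share an experiment and may not be independent. The p-values measure the spread between these samples, which may in part be technical, and they may be too small.

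BMPs are secreted ligands that bind pairs of type I and type II receptors, which phosphorylate the transcription factors Smad1, Smad5 and Smad9. These enter the nucleus with Smad4 and raise the Id genes, whose products bind basic helix-loop-helix factors and keep them off DNA. Antagonists such as Gremlin 1 (Grem1) and Noggin (Nog) bind the ligand outside the cell. Matrix Gla protein is a small secreted protein, carboxylated in a vitamin K-dependent step, that inhibits calcification of soft tissue and binds BMPs; in the lung, BMP signalling takes part in branching and in epithelial differentiation.

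Upstream sequence was shown for the Id2, Id3 and Id4 genes, which fell together, and for Grem1, which rose. Each is the 250 bases before the gene's start in the RefSeq table of GRCm38.p6, 5′ to 3′ on the gene's own strand. The table gave a window for 5 of the 9 genes, Bmp4, Bmp6, Grem1, Id2 and Id3, and for Id4. They lie at chr12:25096093-25096342 on the minus strand (Id2), chr4:136143572-136143821 on the plus strand (Id3), chr13:48260866-48261115 on the plus strand (Id4) and chr2:113758649-113758898 on the minus strand (Grem1). Capitals mark the letters GGCGCC and GCCGNCG, GC-rich motifs known from BMP-responsive elements, searched on both strands.
Id2: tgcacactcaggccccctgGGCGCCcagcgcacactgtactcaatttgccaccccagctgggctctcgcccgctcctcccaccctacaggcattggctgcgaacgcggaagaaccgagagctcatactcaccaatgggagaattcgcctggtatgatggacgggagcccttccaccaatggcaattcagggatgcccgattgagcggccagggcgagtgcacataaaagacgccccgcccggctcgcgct
Id3: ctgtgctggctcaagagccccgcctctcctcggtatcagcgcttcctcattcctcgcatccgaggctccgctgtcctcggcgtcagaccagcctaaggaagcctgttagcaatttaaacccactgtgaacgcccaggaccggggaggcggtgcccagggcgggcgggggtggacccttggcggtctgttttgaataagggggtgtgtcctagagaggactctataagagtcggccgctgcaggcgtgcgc
Id4: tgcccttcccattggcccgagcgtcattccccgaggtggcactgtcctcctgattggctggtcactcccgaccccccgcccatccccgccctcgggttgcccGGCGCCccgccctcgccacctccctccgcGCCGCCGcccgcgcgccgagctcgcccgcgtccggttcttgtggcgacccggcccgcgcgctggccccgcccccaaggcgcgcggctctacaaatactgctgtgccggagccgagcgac
Grem1: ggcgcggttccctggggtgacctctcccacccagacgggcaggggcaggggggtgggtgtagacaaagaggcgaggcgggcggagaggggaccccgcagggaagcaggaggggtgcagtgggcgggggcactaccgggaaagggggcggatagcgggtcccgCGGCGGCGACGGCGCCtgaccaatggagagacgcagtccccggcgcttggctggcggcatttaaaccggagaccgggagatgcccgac
GGCGCC occurred once upstream of Id2, where it ended 225 bases before the start, and 1 time each upstream of Id4 and Grem1. It was in 9.59% of all 32851 windows of that length. GCCGNCG occurred 2 times upstream of Grem1 and 1 time upstream of Id4, and in 11.5% of windows; in Grem1 it shares 3 bases with GGCGCC. The latter motif was also found 1 time upstream of Bmp6. Neither motif was found in the stretch before Id3 or Bmp4, nor before Smad6 and Atoh8, which fell at every dose as described below. Of 2 further BMP genes that rose, described below, Nbl1 had each motif 1 time and Smad1 had neither. The shares are over all windows whatever their base content. G and C made up 62.8% of the stretches of Id2 and Id3, 75.6% for Id4 and 72% for Grem1. These matches are a description of the letters, and they were present in genes that rose as well as in genes that fell.

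The arrays lay on 5 slides, and slide was a term of the fit. Between 23688 and 39139 of 55681 probes exceeded the negative control level in Cy5 on an array, the lowest being control replicate 5. Each array was placed by the share of the high dose change that its called probes showed. Medium dose replicate 2 lay at 0.742, below the other medium dose arrays, and low dose replicate 1 at 0.846, above the other low dose arrays and within the range of the medium dose (0.742 to 0.890). Results that rest on these arrays are given with and without them. Among epithelial markers, Krt7, Krt8 and Krt18 were detected on all 22 arrays, Krt19 on 21, Cldn4 on at most 16 and Epcam on 10. Cdh1 was detected on 0. Of the alveolar type II markers, Lamp3 and Abca3 were detected on all 22, Sftpc on 17, Sftpd on at most 16, Sftpb on at most 3 and Sftpa1 on 0. The type I markers Pdpn, Hopx and Cav1 were detected on all 22, Aqp5 on at most 20 and Ager on 12. The collagen genes Col1a1, Col1a2 and Col3a1 of the fibroblast list were also detected on all 22, and of that list Lum was detected on only 8. Kdr of the endothelial list and Csf1r of the macrophage list were on all 22 too, so detection alone does not mark a cell type. Cy5 signals were 111 to 462 for Krt8, 397 to 2225 for Krt18 and 45636 to 292518 for Col1a2. These are intensities of different probes and do not give the relative amounts of the transcripts.

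Mgp fell with dose. In the 5 control arrays its log2 ratio was 1.37, 1.55, 1.45, 1.33 and 1.08. At the low dose it ranged from -3.17 to 0.07 with a median of -0.65 (n = 6). At the medium dose it was -2.03, -2.78, -1.16, -2.33 and -2.25, and at the high dose it ranged from -3.75 to -2.20 with a median of -3.08 (n = 6). Every exposed array lay below every control array, while the ranges of the 3 doses overlapped one another.

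**Figure D1:**
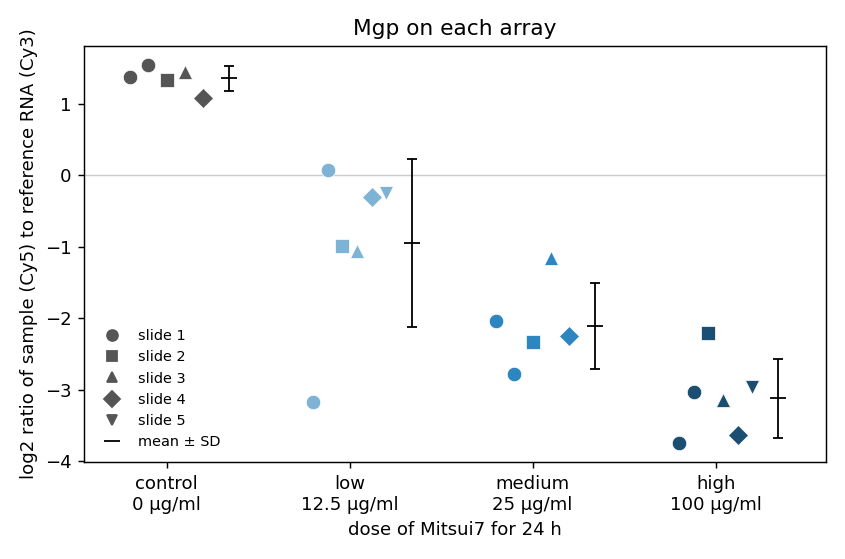
Log2 ratio of Mgp in the sample (Cy5) to reference RNA (Cy3) on each of the 22 arrays, by dose of Mitsui7; the marker shape gives the slide, and the black bar beside each group gives its mean and SD. Controls lie between 1.08 and 1.55 and high dose arrays between -3.75 and -2.20, and low dose replicate 1, at -3.17, lies among the high dose arrays.

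With slide in the model, the change of Mgp against control was -2.39 ± 0.42 (SE) on the log2 scale at the low dose, -3.46 ± 0.43 at the medium dose and -4.56 ± 0.42 at the high dose. These are 5.25-fold, 11.0-fold and 23.6-fold lower levels. The next largest falls were Lama1, a basement membrane laminin chain, at the low and medium doses (-2.11 and -2.41), and the alarmin cytokine Il33 at the high dose (-3.15). The low dose value became -1.92 when low dose replicate 1 was left out, and without it and medium dose replicate 2 the changes were -1.90, -3.29 and -4.51. Between high and low dose Mgp differed by -2.17 ± 0.39, and by -2.61 without those 2 arrays.

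The direction held on each slide. Compared only with controls on its own slide, high dose Mgp differed by -4.85 on slide 1, -3.53 on slide 2, -4.59 on slide 3 and -4.72 on slide 4. The low dose differences within slides ran from -3.01 to -1.39 and those of the medium dose from -3.86 to -2.61. High dose Mgp was below low dose Mgp on all 5 slides, with differences from -3.33 to -1.21. The Cy5 signal of Mgp, which stood at 19.5 to 186 times the negative control level in controls, was still above that level on every high dose array, at 1.87 to 6.07 times. In pooled RNA of a culture, fewer expressing cells and less transcript per cell cannot be told apart.

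Transcripts that mark fibroblasts moved with Mgp. Of the 7 genes of that list 6 were detected, and 5 fell at the low dose and 6 at the medium and high doses by the criteria of the fit below, where 3.00%, 4.64% and 6.39% of all detected genes were called lower. The mean log2 ratio of the 6 ranged from -0.06 to 0.43 over the control arrays, from -1.29 to -0.41 at the low dose, from -1.26 to -0.95 at the medium dose and from -1.50 to -1.05 at the high dose. Its largest member change at the high dose was that of Dcn (-2.27 ± 0.34, adjusted p by limma 0.000117), the gene of the matrix proteoglycan decorin. In the cartilage list, from a tissue known for high Mgp, only Sox9 was called, at -0.86 ± 0.10 at the high dose. Of the smooth muscle, endothelial and macrophage lists 3, 2 and 4 genes were detected and 0 were called by limma at any dose, with 2, 0 and 0 at an unadjusted p under 0.05 at the high dose. At the high dose 1 of 5 detected epithelial markers was called lower (Krt7, -0.85 ± 0.12) and 0 higher, and 1 of 4 detected type I markers was called lower (Hopx, -2.08 ± 0.16) and 0 higher. Of 4 detected type II markers 0 were called lower and 1 was called higher (Lamp3, 0.90 ± 0.17), while Abca3 changed by -0.63 (adjusted p by limma 0.118). The part of any of these lists in the fall of Mgp was not tested.

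Genes whose values lay near those of Mgp were sought among 10115 genes detected in controls and measured on every array. Nearness was the root mean square difference of slide-adjusted log2 ratios, each gene set to 0 at its control mean, over the 22 arrays. It was 1.06 for Il33 and 1.14 for Olfml3, a secreted olfactomedin-domain protein. It was 1.29 for Trf, the iron carrier transferrin, and 1.33 for Angptl7, a secreted angiopoietin-like protein, against a median of 3.22 over all candidates. These 4 also fell, with changes of -3.15 (Il33), -2.97 (Olfml3), -2.73 (Trf) and -2.43 (Angptl7) at the high dose. Since nearness favours any gene with a large fall, this is a description without a test.

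**Figure D2:**
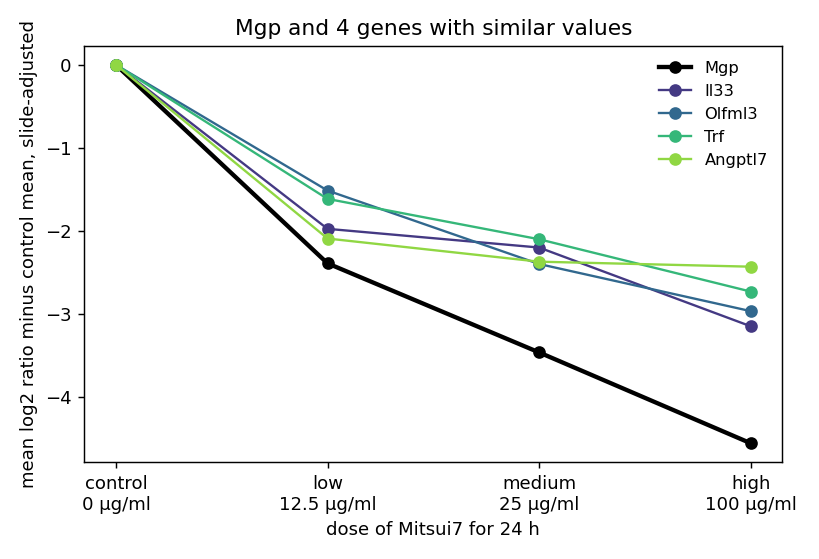
Mean slide-adjusted log2 ratio of Mgp and of Il33, Olfml3, Trf and Angptl7, which lay near it, each less its own control mean, by dose of Mitsui7. Mgp ends at -4.56 at the high dose, and the other genes end between -3.15 and -2.43.

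The BMP genes were tested against control at each dose. A gene, represented by its brightest detected probe, was called on 3 criteria. Its p from limma, adjusted by Benjamini-Hochberg over all 55681 probes, had to be 0.05 or lower, it had to change 1.5-fold or more, and its Cy5 signal had to pass the negative control level on 4 or more arrays of 1 of the compared groups. Of the 8 genes other than Mgp 6 were detected. At the low dose 3 fell (Id1, Id2 and Id3) and 1 rose (Grem1), where 3.00% of 13662 genes were called lower and 2.17% called higher. At the medium dose the same 3 fell and Grem1 rose, against 4.64% called lower and 4.23% called higher of 13427 genes. At the high dose Bmp4 joined them, giving 4 lower and 1 higher, against 6.39% called lower and 5.44% called higher of 14053 genes. None of the 8 was called between high and low dose, where 0.364% of 14284 genes were called lower and 0.0700% called higher; 2 of the 8, Id1 and Id2, had an unadjusted p under 0.05. Without low dose replicate 1 and medium dose replicate 2 the counts against control were again 4, 4 and 5, for the same genes.

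The Id genes, well-known direct targets of BMP signalling, fell at each dose, by 2.26-fold (Id3 at the medium dose) to 3.55-fold (Id1 at the high dose). In controls Id1 stood at -0.45, -0.18, -0.14, 0.48 and 0.38. It ranged from -1.82 to -0.65 at the low dose (median -1.21, n = 6), was -1.90, -1.62, -1.36, -0.58 and -1.28 at the medium dose, and ranged from -2.29 to -1.43 at the high dose (median -1.74, n = 6). All 17 exposed arrays lay below all controls. The change was -1.25 ± 0.14 (adjusted p by limma 1.71e-05) at the low dose, -1.36 ± 0.14 (4.93e-06) at the medium dose and -1.83 ± 0.14 (4.75e-08) at the high dose. Within slides the high dose difference ran from -1.95 to -1.78 on 4 slides.

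Id1 was the member nearest to a difference between doses. High dose Id1 differed from low dose Id1 by -0.57 ± 0.13, a 1.49-fold difference with an adjusted p by limma of 0.0734, and was lower on all 5 slides. This passed the criteria without low dose replicate 1 (-0.63, adjusted p 0.0384), without low dose replicate 4 (-0.68, adjusted p 0.0211), without slide 2 (-0.64, adjusted p 0.0472), and without low dose replicate 1 and medium dose replicate 2 together (-0.63, adjusted p 0.0475). With the replicate number as a block the adjusted p was 0.0287, but the difference stayed under 1.5-fold.

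Id2, which like Id1 lacks a DNA-binding region, was far below the reference RNA on every array. Its log2 ratio was -3.81, -3.92, -3.88, -3.65 and -3.38 in controls. It ranged from -5.32 to -4.23 at the low dose (median -5.07), was -5.58, -5.16, -4.79, -4.65 and -5.28 at the medium dose, and ranged from -5.99 to -5.11 at the high dose (median -5.19). No exposed array reached the lowest control. The changes were -1.25 ± 0.18, -1.36 ± 0.19 and -1.67 ± 0.18, with adjusted p-values by limma of 0.000302, 9.29e-05 and 3.65e-06. The Cy5 signal of Id2 in the exposed arrays was close to the negative control level, at 1.06 to 1.79 times it on high dose arrays, and the size of the fall depended on the processing. Over the alternatives it ran from -2.20 to -1.09 at the low dose, from -2.16 to -1.13 at the medium dose and from -2.75 to -1.32 at the high dose.

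Id3 was bright, with a Cy5 signal of 11.9 to 154 times the negative control level in controls. Its log2 ratio there was 0.60, 0.61, 0.20, -0.33 and -0.05. Over the 5 low dose arrays with a value it was -0.91, 0.03, -2.54, -1.06 and -0.99, since the spot of low dose replicate 3 was marked as an outlier and left out. It was -0.95, -0.18, -0.99, -1.38 and -1.34 at the medium dose and ranged from -1.69 to -0.70 at the high dose (median -1.61, n = 6). One low dose array and one medium dose array lay within the control range, and no high dose array did. The changes were -1.28 ± 0.22 (adjusted p by limma 0.00197), -1.18 ± 0.21 (0.00176) and -1.56 ± 0.21 (4.94e-05). Without the slide term the low and medium dose calls of Id3 were lost, at adjusted p-values of 0.0556 and 0.0767.

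Grem1, the antagonist that blocks BMP2 and BMP4, was higher at each dose. Its log2 ratio was -2.32, -1.99, -2.09, -2.68 and -2.87 in controls. It ranged from -1.57 to -0.26 at the low dose (median -1.02), was -1.04, -0.74, -0.46, -1.58 and -1.24 at the medium dose, and ranged from -1.33 to -0.46 at the high dose (median -1.10). Every exposed array was above every control. The rise was 1.43 ± 0.19 at the low dose, 1.38 ± 0.19 at the medium dose and 1.504 ± 0.190 at the high dose, or 2.69-fold, 2.60-fold and 2.84-fold, with adjusted p-values by limma of 0.000112, 0.000121 and 1.93e-05. High and low dose differed by 0.08 ± 0.18 (adjusted p 0.949), and the within-slide differences between them took both signs.

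Noggin, the other antagonist tested, was dim and did not pass the criteria. Over the arrays with a value its log2 ratio was 1.18, 0.61, 0.30 and -0.25 in controls and 0.44, 0.54, -0.20 and -0.30 at the medium dose, with 1 spot of each group left out as an outlier. Low dose values lay between -1.22 and 0.46 and high dose values between -0.94 and 0.53, so all groups overlapped. The changes were -0.43 ± 0.23, -0.34 ± 0.24 and -0.39 ± 0.23, with adjusted p-values by limma of 0.457, 0.609 and 0.454. In a fit that used the replicate number instead of slide as the block, Noggin was called lower at the low dose (-0.64, adjusted p 0.0336) and the high dose (-0.60, adjusted p 0.0275).

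Of the ligands, only Bmp4 was measured well. Its log2 ratio in controls was 1.19, 0.87, 1.09, 0.54 and -0.72, the last on control replicate 5, the array with the fewest detected probes. It ranged from -0.57 to 0.53 at the low dose (median -0.14), was 0.03, -0.01, 0.30, -0.45 and -0.27 at the medium dose, and ranged from -0.46 to 0.11 at the high dose (median -0.25). The 4 other controls lay above every exposed array, while control replicate 5 lay below all of them. The changes were -0.63 ± 0.20, -0.68 ± 0.20 and -0.78 ± 0.20, with adjusted p-values by limma of 0.0944, 0.0582 and 0.0151. A second Bmp4 probe was not detected on any array.

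The Bmp4 calls turned on single arrays. Without control replicate 5 the low and medium dose changes passed as well, at -0.91 (adjusted p 0.000913) and -0.95 (adjusted p 0.00045), and the medium dose also passed without low dose replicate 1 (adjusted p 0.0437) and with the replicate number as a block (adjusted p 0.0496). Both doses passed without slide 4, at -0.92 and -0.96 (adjusted p by limma 0.003 and 0.00175). The medium dose passed with the scanner's own ratio too (-0.79, adjusted p by limma 0.0113). The high dose call was lost without control replicate 1 (adjusted p 0.0502), control replicate 3 (0.0656), control replicate 4 (0.0542) or high dose replicate 3 (0.0618), with changes from -0.72 to -0.67. On slides 1, 2 and 3 high dose Bmp4 was below its own controls, and on slide 4, which holds control replicate 5, it was above by 0.27.

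Bmp2 and Bmp6 gave no measurable level. Bmp2 exceeded the negative control level on 4 of 22 arrays and Bmp6 on 9, and neither did so on 4 arrays of any group. Their fitted changes against control lay between -0.02 and 0.12 for Bmp2 and between 0.05 and 0.17 for Bmp6, values that hold little beyond background.

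**Figure D3:**
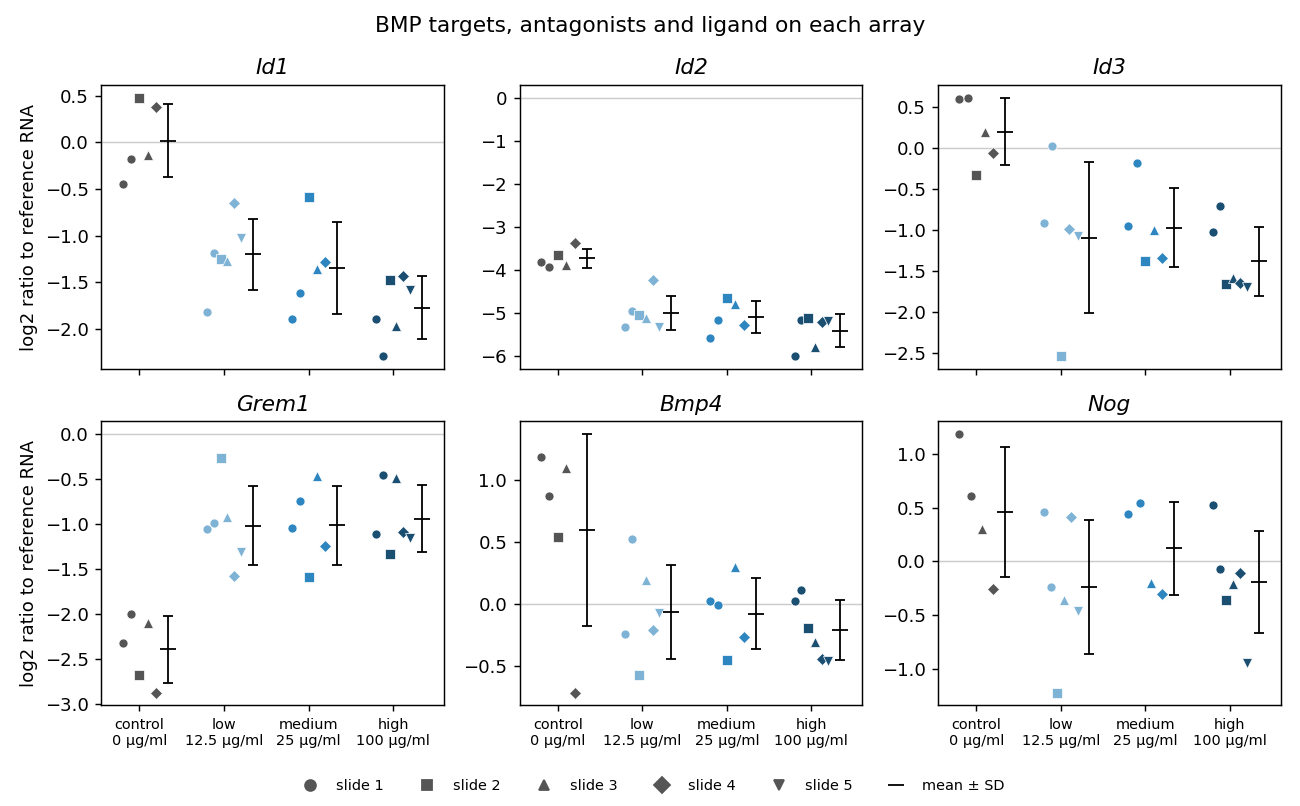
Log2 ratio to reference RNA on each array for Id1, Id2, Id3, Grem1, Bmp4 and Nog, by dose of Mitsui7; marker shapes give the slide, and black bars give the mean and SD of each group. Exposed arrays lie below all controls for Id1 and Id2 and above all controls for Grem1, and 1 control array of Bmp4 lies at -0.72, below the others.

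The rest of the pathway was read from 5 further lists with 50 genes, of which 34 were detected at the low dose, 35 at the medium dose and 36 at the high dose. In all, 3 were called lower at each dose, and 1, 2 and 2 were called higher. At the high dose, 3 of 36 lower and 2 of 36 higher are near the 6.39% and 5.44% of all detected genes. At the low dose 3 of 34 were lower and 1 higher, beside 3.00% and 2.17% of all detected genes. At the medium dose 3 of 35 were lower and 2 higher, beside 4.64% and 4.23%. The median change of the detected genes was 0.03, 0.09 and 0.03, beside 0.00, 0.00 and 0.01 over all detected genes. Of the 11 other BMP ligands, 5 to 7 were detected and 0 were called by limma, with 2, 0 and 0 at an unadjusted p under 0.05 at the low, medium and high dose. Of the 11 receptors and co-receptors 9 were detected and 0 were called, with 1, 0 and 1 at an unadjusted p under 0.05. At the high dose the type II receptor Bmpr2 changed by 0.15 (adjusted p 0.847) and the type I receptor Bmpr1a by -0.21 (adjusted p 0.521).

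Among 14 further antagonists 8 were detected, where 2.17%, 4.23% and 5.44% of all detected genes were called higher at the 3 doses. Only 1 was called, Nbl1, which encodes the Gremlin relative DAN. It ranged from -2.48 to -1.90 in controls, from -1.53 to -1.17 at the low dose, from -1.85 to -0.99 at the medium dose and from -1.27 to -0.70 at the high dose. Like Grem1 it was above all controls on every exposed array, with changes of 0.82 ± 0.11, 0.81 ± 0.11 and 1.23 ± 0.11 (adjusted p by limma 0.000149, 0.000121 and 3.2e-07). After median centring its low dose call was lost (0.68, adjusted p 0.17). Of the 4 Smads that carry the signal 3 were detected, and Smad1 was called higher at the medium dose (0.59 ± 0.11, adjusted p 0.00218) and the high dose (0.66 ± 0.11, adjusted p 0.000352). The Smad1 changes were near the fold threshold. At the low dose (0.58 ± 0.11, 1.49-fold) Smad1 was just under it, and it passed there in 17 of 43 alternatives, the replicate number as a block among them (0.70). The medium dose call was lost without control replicate 1 (0.50), control replicate 3 (0.57), or medium dose replicate 1 (0.58), 4 (0.58) or 5 (0.55), and the high dose call without control replicate 1 (0.58). Both were also lost after median centring (0.45 and 0.49, adjusted p 0.214 and 0.0728), without slide 1 (0.51 and 0.56) and with the median of both probes (0.39 and 0.48), and the medium dose call with normexp (0.56). The dimmer of the 2 detected Smad1 probes gave 0.22, 0.20 and 0.30 and was not called.

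Of 10 further targets and feedback inhibitors 9 were detected and 3 fell at every dose. Of all detected genes 3.00%, 4.64% and 6.39% were called lower at the low, medium and high dose. Smad6, the inhibitory Smad that BMP signalling induces, changed by -0.90 ± 0.09, -1.02 ± 0.10 and -1.49 ± 0.09 (adjusted p by limma 7.77e-06, 1.4e-06 and 3.13e-09), from 1.17 to 1.75 in controls to -0.61 to 0.14 at the high dose. Smad6 was also lower at the high than at the low dose, with a difference of -0.59 ± 0.09 (1.503-fold, adjusted p 0.00553), on all 5 slides. That call lay on the fold threshold and was lost under 14 of 43 alternatives. Among them were single arrays left out, low dose replicate 2 (-0.55) or 3 (-0.58) or high dose replicate 2 (-0.52) or 4 (-0.56), and median centring (-0.48, adjusted p 1), the fit without slide (adjusted p 0.18), the fit of only the groups compared (0.0661) and the fit without slide 3 (0.064). Id4, a dim member of the Id family, stood at 0.72 to 1.54 in controls and at -0.78 to -0.08 at the high dose. There it was not well above background on any array, so the size of its fall is uncertain. The fitted change was -1.46 (adjusted p by limma 6.91e-08). By group means of normalised Cy5 signal, a separate measure, the high dose measured 2.55-fold lower than control. Setting the high dose no lower than the dimmest signal well above background left that value as measured. It holds for group means under the main processing. Over the alternatives the fitted difference ran from -3.41 to -1.12, and within slides the measured difference ran from -1.82 to -0.94. Atoh8, a basic helix-loop-helix factor, changed by -1.14 ± 0.25, -1.46 ± 0.25 and -1.69 ± 0.25 (adjusted p by limma 0.0103, 0.000919 and 9.55e-05). It stood at 0.24 to 1.63 in controls and at -0.93 to 0.39 at the low dose, so these ranges overlapped. On slide 4, which holds control replicate 5, the low dose was above control by 0.16. Its low dose call was lost without control replicate 3 (-1.0045, adjusted p 0.0551), without slide 1 (0.106), slide 2 (0.0762) or slide 3 (0.0837), with the scanner's own ratio (0.279) and with only the groups compared (0.0735). Not called were Smad7, Hey1, Msx1 and Msx2, which changed at the high dose by 0.37, -0.03, -0.07 and 0.00.

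**Figure D4:**
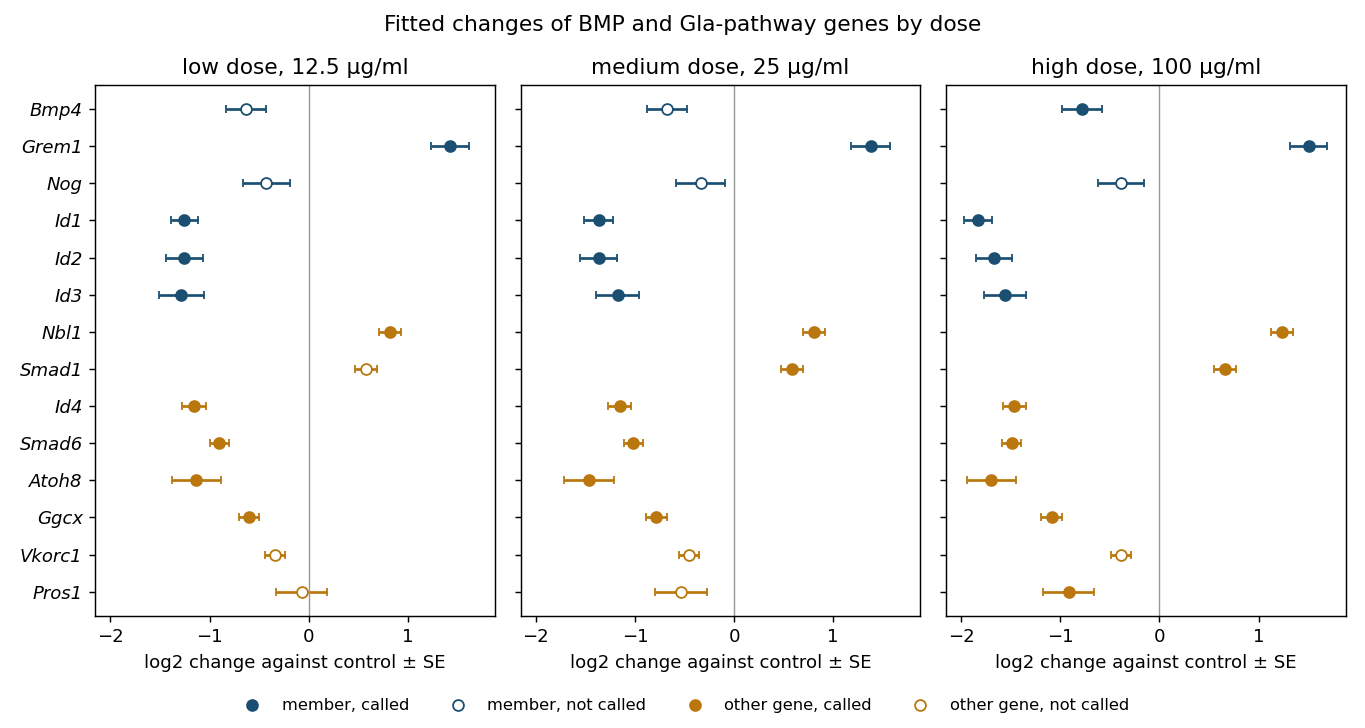
Fitted log2 change against control with its SE at each dose for 6 members (blue) and for 8 other genes of BMP signalling or the vitamin K-dependent pathway (orange); filled points met all criteria for a call and open points did not. The Id genes, Smad6 and Atoh8 lie left of 0 and Grem1 and Nbl1 lie right of 0 at all 3 doses.

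Matrix Gla protein is made active by vitamin K-dependent carboxylation, and the genes of that step were read beside it. Ggcx, the gamma-glutamyl carboxylase, stood between 0.74 and 0.82 in all 5 controls, between -0.24 and 0.39 at the low dose, between -0.32 and 0.41 at the medium dose and between -0.44 and -0.17 at the high dose. It changed by -0.60 ± 0.10 (adjusted p by limma 0.00151), -0.78 ± 0.11 (7.81e-05) and -1.09 ± 0.10 (5.8e-07), and the high dose was 2.12-fold below control. The low dose fall was barely 1.5-fold and dropped under it without control replicate 1 (-0.58), control replicate 2 (-0.57) or low dose replicate 1 (-0.52), with the replicate number as a block (-0.58), with normexp (-0.56) or without the slide term (-0.57), and the call was also lost without slide 1 (-0.48, adjusted p 0.053). Vkorc1, the reductase that recycles vitamin K, changed by -0.34 ± 0.10, -0.45 ± 0.10 and -0.39 ± 0.10 (adjusted p by limma 0.0637, 0.0081 and 0.015), which stayed under 1.5-fold. Its second probe gave -0.47, -0.54 and -0.47.

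Of the 16 genes of vitamin K-dependent proteins and mineral balance, the latter 2 included, 14 were on the array and 9, 8 and 9 were detected at the low, medium and high dose. At the low and medium doses 1 of them fell and 1 rose, and at the high dose 2 fell and 0 rose, with 3, 5 and 7 at an unadjusted p under 0.05. Of all detected genes, 3.00%, 4.64% and 6.39% were called lower at the low, medium and high dose, and 2.17%, 4.23% and 5.44% higher. Beside Ggcx, the gene that fell at the high dose was Pros1, the anticoagulant protein S, at -0.91 ± 0.26 (adjusted p by limma 0.0312). Its low and medium dose values were -0.07 ± 0.26 and -0.53 ± 0.26, and its high dose call was lost without control replicate 1 (-0.83, adjusted p 0.0961), 2 (-0.84, 0.0986) or 5 (-0.85, 0.096), or high dose replicate 1 (-0.88, 0.0704), 2 (-0.92, 0.0535) or 4 (-0.79, 0.101). It was also lost without slide 1 (0.587) or 4 (0.101), after median centring (0.301), with the scanner's own ratio (0.169), without the slide term (0.0512) and without shrinkage of variances (0.0973). Spp1, the secreted phosphoprotein osteopontin, named after its values were seen, rose at the low dose (1.09 ± 0.22, adjusted p by limma 0.00496) and the medium dose (1.05 ± 0.22, 0.00562) and stood at 0.50 ± 0.22 (adjusted p 0.21) at the high dose.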

How the data were processed

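RNA of FE1 cells was hybridised to 22 two-colour arrays. The deposited scanner files hold the median intensity of each spot in both channels, extracted by the authors without normalization. Per the file headers this was done with Feature Extraction 10.7.3.1 on a grid for mm9, whereas the study's methods give a different version. A log10 ratio by the scanner software and 0 or 1 marks for each spot were deposited with them, and the authors' series matrix holds log2 ratios of unstated normalization; both ratios were used as alternatives.

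The local background was not subtracted, and log2(Cy5/Cy3) of the median intensity was put through loess normalisation array by array. Control spots had weight 0, spots marked as outliers (0.401% to 6.22% per array) were left out, and spots of a probe were combined by their median. A probe was detected when its Cy5 intensity was over the level of the 308 negative control spots, their 5% trimmed mean plus 3 trimmed SDs. The number of arrays limits the precision. With no dye swap, a dye bias of a probe cancels in differences between groups only. At most 2.40% of probes had equal Cy5 intensity on any pair of arrays.

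Probe accessions were matched to a RefSeq table of GRCm38.p6 for names and upstream windows; 26413 of 55681 probes matched, for 20018 genes. Groups were taken from the labels and compared by lmFit and eBayes of limma 3.58.1 (R 4.3.3), in 1 model of group and slide over all arrays. The model was also run on simulated data with independent noise on each array. That run cannot show whether the p-values hold where arrays are correlated. The shrinkage test of the methods was not installed. Slides were numbered from the barcodes in the files; slide 1 held 8 arrays, slides 2, 3 and 4 held 4 each with 1 of every group, and slide 5 held 2. Each sample number of the labels was set beside the control of that number: over 15 pairs, deviations from the group means correlated at 0.209 to 0.809, and 12 were highest for the same number. The numbers coincide with slides only in part. Slide 1 held numbers 1 and 2 of every group, and there each control was nearest to the exposed array of its own number. High dose replicate 5 and control replicate 5 lay on different slides and correlated at 0.480. Low dose replicate 5 also lay on another slide than that control and correlated with it at 0.271, and another low dose array was nearer to that control. The slide term does not take up a likeness across slides, and the main fit does not use the numbers. A fit with the number as a block was run as an alternative.

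Members and lists were chosen with earlier results of these data known. Named genes are the members, Ggcx, Vkorc1, list genes called at the high dose, and the 5 genes nearest to Mgp, of which 1 is not reported here; values of other genes are given as examples of their list. In all, 43 alternatives were run.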

Additional observations from a re-analysis of the deposited data

Results flagged for a closer look

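Of 28 sets of arrays, 1 for each measured member and dose group, 2 held an array far from the others; chance gives about 1 in 20. Mgp at the low dose was -3.17 on replicate 1 (slide 1) and between -1.06 and 0.07 on the other 5 arrays. Id2 at the low dose was -4.23 on replicate 6 (slide 4) and between -5.32 and -4.94 on the others.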

How the results depend on the processing

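Over the 43 alternatives 3 to 5 of the 8 BMP genes were called against control at either lower dose, and 4 to 6 for the high dose. The fall of Mgp lay between -2.72 and -1.90 (low), -3.69 and -3.20 (medium) and -4.88 and -4.24 (high). With any 1 array left out, the count was 4 to 5 against control for each dose and 0 to 1 between high and low dose, the 1 being Id1. That last count was also 1 without slide 2, and 1 without low dose replicate 1 and medium dose replicate 2. Id1, Id2 and Grem1 were called against control at every dose under every alternative, and Id3 except without the slide term at the low and medium doses. With the replicate number as a block the counts were 5, 5, 6 and 0, and beside the changes given with the results the block changed no other call. Signs turned only in values that were not called. Noggin at the low dose was 0.057 after median centring, which moved the median of all genes by -0.11 there. Between high and low dose, Noggin was -0.11 with normexp, -0.25 after median centring, -0.053 with the scanner ratio, -0.20 with the series matrix and -0.12 without slide 2, and ran from -0.12 to 0.21 with single arrays left out. For the same pair of doses Vkorc1 was 0.059 after median centring, 0.026 with the series matrix and 0.0076 without slide 4, and ran from -0.11 to 0.011 with single arrays left out, and Grem1 was -0.056 with the scanner ratio, -0.00059 without slide 1 and -0.0043 without slide 4. Pros1 at the low dose was 0.065 with only the groups compared, 0.28 without slide 1 and 0.028 without slide 3 or slide 4, and ran from -0.45 to 0.026 with single arrays left out. The Bmp4 call at the high dose was lost after median centring (adjusted p 0.178), with the series matrix (0.12), without the slide term (0.079), at 2-fold, without shrinkage of variances (0.0514), and without slides 1 (0.253) or 3 (0.151). The cause was not tested. Where leaving out slide 1 left 3 arrays in a group, detection was required on all 3. Id2, Id4 and Noggin are limited by signal close to background.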
